A study of Mus musculus with 16 samples.

Results

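The 14-3-3 protein genes of the mouse were followed through RNA-seq libraries of C2C12 cells. They are *Ywhab*, *Ywhae*, *Ywhag*, *Ywhah*, *Ywhaq*, *Ywhaz* and *Sfn*, and the letter that ends each Ywha symbol names the isoform (β, ε, γ, η, θ and ζ), while *Sfn* encodes the σ isoform. They were chosen by name, as the rows of 2 count tables whose Ensembl identifier carries one of these symbols in GENCODE, and not by any measured value. Earlier results of these data were known at that time. This gave 7 of the 49585 rows of each table, and all 7 passed edgeR's filter on low counts in every comparison.

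C2C12 is a mouse myoblast line that leaves the cell cycle and fuses into myotubes once it is confluent and serum is lowered. In the first experiment, WT cells were compared with AMPK-KO cells, in which *Prkaa1* and *Prkaa2*, the genes of both catalytic α subunits of AMP-activated protein kinase (AMPK), had been cut by CRISPR/Cas9, as myoblasts in growth medium (d0) and after 8 days in differentiation medium (d8). The second experiment used d0 cells only, and all of its libraries came from AMPK-KO cells. Into the endogenous *Tet2* gene of these cells a FLAG-BirA tag had been knocked in together with the coding sequence of EGFP, either with the normal TET2 sequence (TET2-WT) or with serine 97 exchanged for glutamate (TET2-S97E), a residue used to imitate the serine phosphorylated by AMPK. WT d0, AMPK-KO d0, WT d8 and AMPK-KO d8 had 2 libraries each, and TET2-WT and TET2-S97E had 2 clones each with 2 libraries per clone, so that there were 16 libraries in all. The study speaks of independent AMPK-KO lines for tracks that include its RNA-seq, but the labels do not tie an AMPK-KO library to a line. A TET2 genotype rests on 2 clones. Nothing in the labels says that replicates were separate cultures, so that the p-values below measure the spread between these libraries, which in some groups may be technical.

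The 14-3-3 proteins are small acidic adaptors that work as homodimers or heterodimers. A dimer binds its partner proteins, called clients, at short motifs that hold a phosphorylated serine or threonine, and it holds the client in the cytoplasm, shields it from phosphatases or changes its activity. AMPK, AKT and several other kinases write such sites, protein phosphatases erase them, and the σ isoform differs from the others in being a p53 target that is made mainly in epithelial cells. The study asked how AMPK acts on the DNA demethylating enzyme TET2, and it tested the binding of 14-3-3β, the product of *Ywhab*, to TET2 phosphorylated at serine 97. That test used tagged proteins transfected into a cell line other than C2C12, and not the cells' own *Ywhab*. The question addressed here is whether the transcripts of the 14-3-3 family differ between the groups in which that site was altered, or during differentiation.

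The bases that code for the TET2 site are shown because this site is what distinguishes TET2-WT from TET2-S97E by design. The window covers 57 bases of *Tet2* transcript Tet2-204, in exon 3 of 12, at chr3:133488354-133488410 of GRCm38 on the minus strand, and the capitals mark codon 97, a serine codon (133488381 to 133488383), in the reference sequence.
Tet2 codon 97: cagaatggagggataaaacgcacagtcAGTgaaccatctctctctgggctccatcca

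The members are alike in their coding sequence, which matters for reads that are assigned to one of them. Over the 21 pairs of members the coding sequences were 63.0 to 79.0% identical, with a median of 68.6%, and the closest pair was *Ywhag* and *Ywhah*. A window of 60 bases from the strongly conserved 3′ part of the coding sequence is printed for each member, from the GENCODE transcripts on GRCm38, with the bases that are unlike *Ywhab* in capitals. It lies in exons 5 to 6 of *Ywhab*, exon 5 of *Ywhae*, exon 2 of *Ywhag* and of *Ywhah*, exons 4 to 5 of *Ywhaq*, exons 6 to 7 of *Ywhaz* and exon 1 of *Sfn*. The genomic spans, which include an intron for *Ywhab*, *Ywhaq* and *Ywhaz*, are chr2:164016148-164016677 (plus strand), chr11:75759350-75759409 (plus), chr5:135911037-135911096 (minus), chr5:33027097-33027156 (plus), chr12:21391407-21395015 (minus), chr15:36772769-36775289 (minus) and chr4:133601077-133601136 (minus), in that order.
Ywhab: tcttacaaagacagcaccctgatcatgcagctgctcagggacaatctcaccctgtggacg
Ywhae: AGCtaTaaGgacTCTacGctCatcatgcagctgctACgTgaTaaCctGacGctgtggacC
Ywhag: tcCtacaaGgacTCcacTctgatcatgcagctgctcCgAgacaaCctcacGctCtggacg
Ywhah: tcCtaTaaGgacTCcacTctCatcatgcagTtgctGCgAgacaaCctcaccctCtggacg
Ywhaq: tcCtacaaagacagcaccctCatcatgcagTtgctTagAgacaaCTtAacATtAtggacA
Ywhaz: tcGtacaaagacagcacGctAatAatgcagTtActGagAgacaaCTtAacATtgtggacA
Sfn: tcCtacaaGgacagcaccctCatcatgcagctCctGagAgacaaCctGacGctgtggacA

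Even in this window the members differed from *Ywhab* at 10 positions (*Ywhag* and *Sfn*) to 18 positions (*Ywhae*), and the longest run that any 2 members shared over their whole coding sequence was 30 bases, in *Ywhag* and *Ywhah*. Stretches of 150 bases, the length to which each end of a fragment was sequenced before trimming, were therefore compared. No member shared such a stretch with another member, and none from the transcripts of *Ywhab*, *Ywhae* or *Ywhag* was found in another gene of GENCODE M21. Such stretches made up 1.19% of those of *Ywhah*, 12.67% of *Ywhaq*, 9.96% of *Ywhaz* and 0.75% of *Sfn*. For *Ywhaz* they were shared with the row *Gm4202*, which held 45 to 129 counts per library, at most 0.62% of the count of *Ywhaz*. For *Ywhaq* they were shared with *Cdk5rap2*, a centrosome gene whose row held 850 to 2021 counts, up to 27.9% of the count of *Ywhaq*, with *Gm21178*, with *Gm2423* (10 to 42 counts) and with *Ywhaq-ps3* (0 to 16 counts). An exon of *Gm4419* on the opposite strand also covers 248 bases of *Ywhaq*, 8.1% of its exon length, and it held 9 to 58 counts. The sources used here do not state how the counting handled strand or reads with several alignments, so the *Ywhaq* and *Ywhaz* counts are uncertain by the reads shared in this way.

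Depth was ample for 6 of the members and thin for *Sfn*. The libraries of the first experiment held 17883417 to 24663079 counts and those of the TET2 experiment 19801909 to 37790358 counts. Levels are given as CPM, counts scaled to a common library size by the trimmed mean of M-values method. Each table was normalized on its own, so that levels of the 2 experiments were not tested against each other. The least abundant of the Ywha genes in any library was *Ywhah*, with 1843 counts in AMPK-KO d8 replicate 2. *Sfn* had 4 to 74 counts per library.

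The edited genes were read first. *Prkaa1*, which encodes AMPK α1, stood at 159 and 159 CPM in WT d0 and at 79.7 and 78.03 CPM in AMPK-KO d0, and at 126 and 125 CPM in WT d8 and 83.3 and 82.5 CPM in AMPK-KO d8. It was lower in AMPK-KO cells at both days (log2 fold change −1.01 at d0 with an edgeR adjusted p of 0.0116, and −0.60 at d8 with 0.0419). *Prkaa2*, which encodes α2, stood at 1.69 and 1.79 CPM in WT d0, 0.209 and 0.421 in AMPK-KO d0, 6.22 and 10.1 in WT d8 and 1.26 and 0.826 in AMPK-KO d8. The labels and the edited genes go together, although transcripts of both genes were still counted. *Tet2* stood at 34.3, 22.5, 58.4 and 56.4 CPM in the TET2-WT libraries and at 12.9, 22.0, 7.88 and 22.1 CPM in the TET2-S97E libraries, without overlap, and its log2 fold change of −1.40 (standard error 0.39) had an edgeR adjusted p of 0.0621.

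The cell type was checked against marker lists. The 11 muscle markers summed to 1456 and 2049 CPM in WT d0 and 986 and 1217 CPM in AMPK-KO d0. At d8 they summed to 8439 and 11879 CPM in WT and to 3018 and 13026 CPM in AMPK-KO cells. AMPK-KO d8 replicate 1 therefore stood well below the other d8 libraries in muscle transcripts. Of the 11 markers, 8 were called higher at d8 than at d0 in each genotype, beside 12.4% of all genes called in WT and 9.76% in AMPK-KO cells. The most abundant marker was the intermediate filament gene *Des* in every d0 library of this experiment and in AMPK-KO d8 replicate 1, and the sarcomeric actin gene *Acta1* in the other d8 libraries. The 6 epithelial markers summed to at most 14.7 CPM and the 4 adipocyte markers to at most 1.67 CPM in any of the 16 libraries.

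All members were counted in every library, at levels that spanned orders of magnitude, *Sfn* with few counts. Per kilobase of exon, the scale on which genes can be compared, *Ywhae* was the highest in all 16 libraries, from 176 to 480.1 CPM per kilobase, and *Ywhaz* came next in all 16, from 131 to 411 CPM per kilobase. Both lay above every other member in each library. *Ywhab*, *Ywhag* and *Ywhaq* formed a middle group that changed places, since *Ywhaq* was above *Ywhab* in 11 of the 16 libraries and *Ywhab* above *Ywhag* in 12. In WT d0 the 3 stood at 112 ± 8.01, 97.3 ± 13.8 and 119 ± 27.4 CPM per kilobase (*Ywhab*, *Ywhag* and *Ywhaq*; SD, n = 2), so that they did not differ beyond their spread there. The place of *Ywhaq* differed between groups. In WT d8 it was below the other two, at 67.4 ± 4.89 CPM per kilobase against 89.4 ± 7.60 for *Ywhab* and 84.3 ± 1.36 for *Ywhag* (SD, n = 2). In TET2-WT it was above both, at 97.2 ± 11.1 CPM per kilobase against 72.5 ± 6.65 and 56.4 ± 1.86 (SD, n = 4). *Ywhah* was below all 5 other Ywha genes in 15 of 16 libraries, the exception being WT d0 replicate 2, where it reached 126 CPM per kilobase and lay above *Ywhab* and *Ywhag*. *Sfn*, the epithelial isoform, was last in all 16, between 0.125 and 1.63 CPM per kilobase.

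The family total was highest in WT d0. Summed over the 7 members it was 3323 and 4802 CPM in WT d0, 3106 and 3331 CPM in AMPK-KO d0, 2558 and 2717 CPM in WT d8 and 2337 and 2654 CPM in AMPK-KO d8. The WT d0 library with 4802 CPM stood apart from all others, and each of the 6 Ywha genes had its highest level of the 8 libraries there. The total was lower at d8 than at d0 in both genotypes without overlap between the days, while the genotypes overlapped at each day. In the TET2 experiment the total ran from 1892 to 2461 CPM and the genotypes overlapped.

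**Figure D1:**
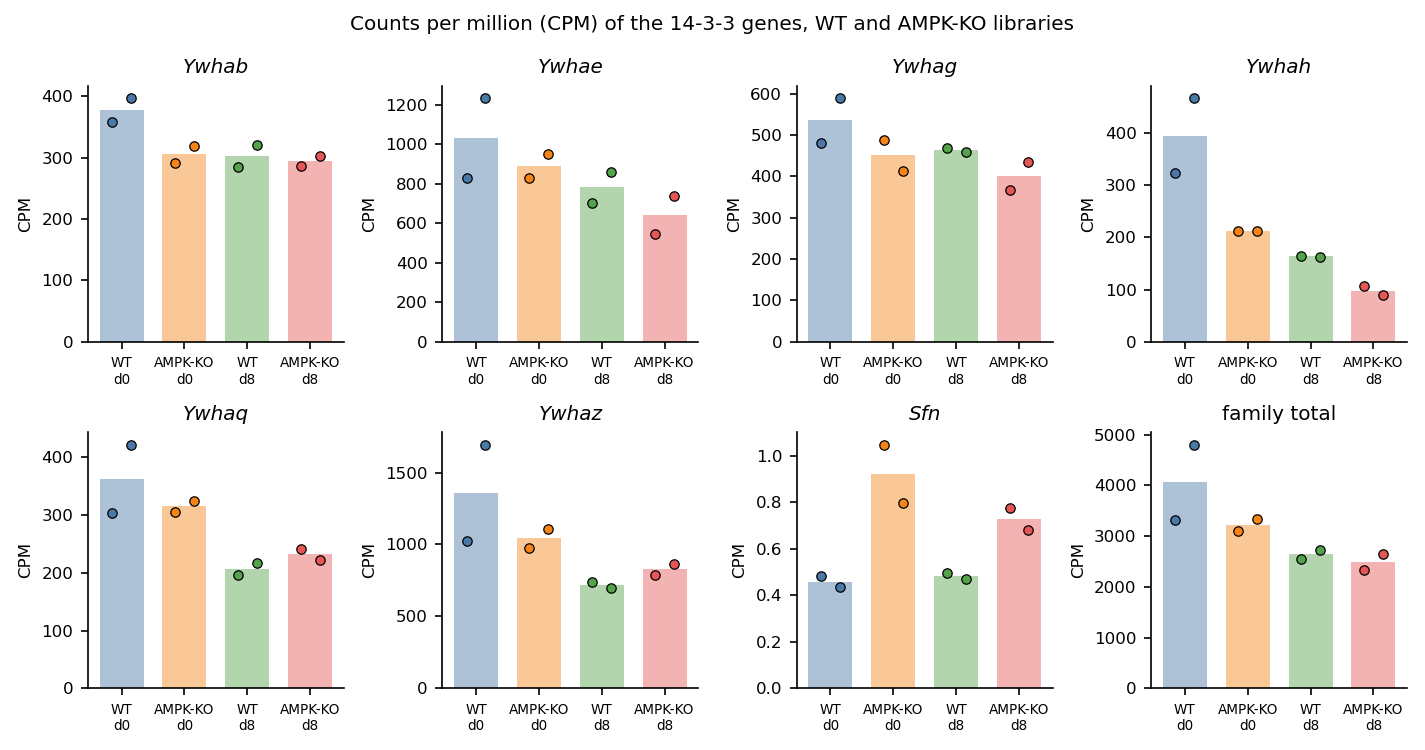
Level of each 14-3-3 gene and of the family total in WT and AMPK-KO cells at d0 and d8, in CPM on a linear axis from 0, with bars for the mean of 2 libraries and points for each library. *Ywhah* steps down from 324 and 467 CPM in WT d0 to 106 and 89.5 CPM in AMPK-KO d8, whereas *Ywhab* runs from 284 to 397 CPM and *Ywhag* from 367 to 589 CPM over the 8 libraries.

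The make-up of the family was followed as shares. *Ywhaz* and *Ywhae* took the largest shares of the summed CPM in all 16 libraries. *Ywhaz* took 33.1 ± 3.11% (SD, n = 2) in WT d0 and 27.4 ± 2.21% in WT d8, and *Ywhae* took 25.3 ± 0.517% and 29.6 ± 2.85%. *Ywhah* took 9.74 and 9.72% in WT d0, 6.83 and 6.37% in AMPK-KO d0, 6.43 and 5.98% in WT d8 and 4.54 and 3.37% in AMPK-KO d8. Its share was lower at d8 than at d0 within each genotype and lower in AMPK-KO cells than in WT at each day, with no overlap in any of these 4 comparisons. Between the days the shares of 7 of the 7 members did not overlap in WT cells and those of 3 in AMPK-KO cells. Between AMPK-KO and WT cells they did not overlap for 4 members at d0 and 5 at d8. A share is defined only within the family, so no count over all genes can stand beside these. Groups of 2 libraries often do not overlap. In CPM, 61.5% of all genes tested did not overlap between the days in WT and 59.1% in AMPK-KO cells. Between AMPK-KO and WT cells it was 49.4% at d0 and 57.9% at d8. The counts are therefore not read as a trait of the family. *Ywhag* went the other way with time, from 14.5 and 12.3% in WT d0 to 18.3 and 16.9% in WT d8. *Sfn* made up 0.00903 to 0.0337% in this experiment. Shares of 1 total are not independent of each other, so that a lower share of one member raises those of the rest.

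**Figure D2:**
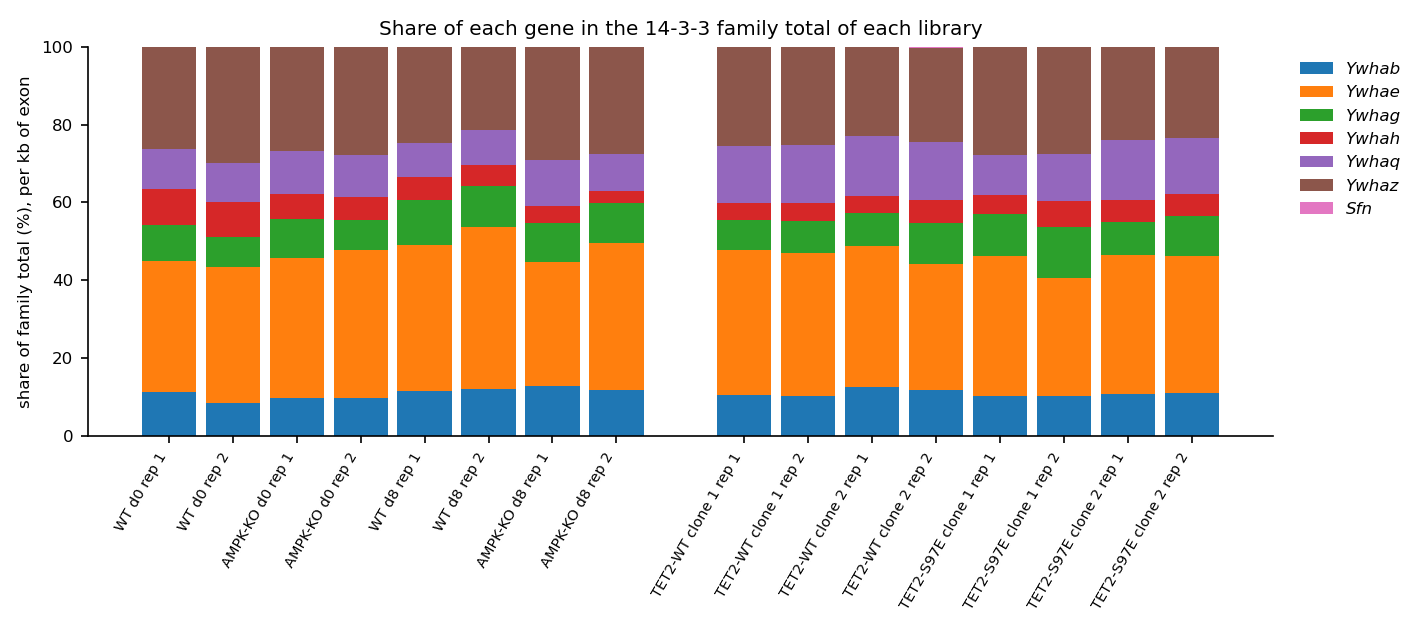
Share of each 14-3-3 gene in the family total per kilobase of exon, in percent, stacked for each of the 16 libraries. *Ywhae* and *Ywhaz* fill most of every bar, the *Ywhah* band narrows from 9.16 and 9.12% in WT d0 to 4.31 and 3.16% in AMPK-KO d8, and *Sfn* is too thin to be seen.

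The change with differentiation was first examined in WT cells. *Ywhah*, the η isoform, stood at 324 and 467 CPM in WT d0 and at 165 and 162 CPM in WT d8. Both d8 libraries lay far below both d0 libraries and were close to each other. The level fell to 0.414-fold (95% CI 0.295 to 0.580, log2 fold change −1.27, standard error 0.21, edgeR adjusted p = 0.0156). *Ywhaq*, the θ isoform, stood at 304 and 422 CPM in WT d0 and at 196 and 217 CPM in WT d8. Again the days did not overlap, and the level fell to 0.569-fold (log2 fold change −0.81, standard error 0.20, edgeR adjusted p = 0.0407). Fitted on the libraries of WT cells alone, *Ywhaq* fell short of the threshold and *Ywhah* was called. In the main fit 2 of the 7 members were thus called, both lower, where 12.4% of all genes tested were called in either direction and 6.58% were called lower.

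*Ywhaz*, the ζ isoform and the most abundant member by CPM at d0, stood at 1026 and 1694 CPM in WT d0 and at 739.8 and 701 CPM in WT d8. Both d8 libraries were lower, but the d0 libraries differed widely and the log2 fold change of −0.92 (standard error 0.26) missed the threshold with an edgeR adjusted p of 0.0600. It passed with the replicate number as a block in edgeR (adjusted p = 0.0495), a fit that called 16.5% of all genes tested. *Ywhab* stood at 358 and 397 CPM in WT d0 and 284 and 321 CPM in WT d8, *Ywhag* at 482 and 589 CPM and then 469 and 458 CPM. Both were lower at d8 without overlap, by less than the test could call (log2 fold changes −0.32 and −0.21, edgeR adjusted p = 0.221 and 0.498). *Ywhae* overlapped between the days, with 829 and 1233 CPM in WT d0 and 704 and 858 CPM in WT d8. Groups that did not overlap were found for 5 members, all of them lower at d8, while 61.5% of all genes tested did not overlap between these groups and 30.2% were separate and lower. The median log2 fold change of the 7 members was −0.40, and that of all genes tested was 0.01.

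These calls rested on few libraries. Leaving out WT d0 replicate 1 kept both, with edgeR adjusted p-values of 0.0107 for *Ywhah* and 0.0175 for *Ywhaq*, and brought *Ywhaz* under the threshold at 0.0141. Leaving out WT d0 replicate 2, WT d8 replicate 1 or WT d8 replicate 2 ended both calls, with edgeR adjusted p-values of 0.0714, 0.0820 and 0.121 for *Ywhah* and 0.168, 0.180 and 0.172 for *Ywhaq*. In these fits 1 group has a single library that is assumed to vary like the others, and the number of genes called over the whole table dropped from 1771 to 0, 2 and 0. The *Ywhah* fold change kept its direction throughout, between −1.53 and −0.97 on the log2 scale. Bulk RNA cannot tell fewer cells that express a gene from less of its RNA in each cell, and the d8 libraries also held the muscle transcripts given above, whose part in these differences was not tested. The neuronal marker *Stmn2* was lower at d8 in WT cells as well (log2 fold change −2.79, edgeR adjusted p = 0.0426), with *Tubb3* at −1.17 (edgeR adjusted p = 0.0648), and in AMPK-KO cells *Tubb3* was lower (−3.004, edgeR adjusted p = 0.0209) and *Stmn2* stood at −0.16 (edgeR adjusted p = 0.921). Their part was not tested either.

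In AMPK-KO cells only *Ywhah* was called among the 7 members. It stood at 212 and 212 CPM in AMPK-KO d0 and at 106 and 89.5 CPM in AMPK-KO d8, so that both d8 libraries lay far below the d0 libraries, which were close to each other. The level fell to 0.461-fold (95% CI 0.329 to 0.646, log2 fold change −1.12, standard error 0.21, edgeR adjusted p = 0.0263), beside 9.76% of all genes tested that were called and 4.95% that were called lower. Without AMPK-KO d8 replicate 1, the library poor in muscle transcripts, the edgeR adjusted p was 0.0463 and the log2 fold change −1.24, and without AMPK-KO d0 replicate 1, AMPK-KO d0 replicate 2 or AMPK-KO d8 replicate 2 the adjusted p was 0.147, 0.0874 and 0.116. *Ywhaq* stood at 306 and 324 CPM in AMPK-KO d0 and at 242 and 223 CPM in AMPK-KO d8, and *Ywhaz* at 979 and 1109.7 CPM and then at 789 and 864 CPM. The days were separate for both, with log2 fold changes of −0.44 and −0.34 that were not called (edgeR adjusted p = 0.194 and 0.423). *Ywhae* stood at 829 and 951 CPM in AMPK-KO d0 and 546 and 740.3 CPM in AMPK-KO d8 (log2 fold change −0.47, edgeR adjusted p = 0.284). *Ywhab* differed least, with 291 and 319 CPM at d0 and 285 and 303 CPM at d8, and *Ywhag* overlapped too, with 487 and 413 CPM and then 367 and 434 CPM. Without overlap and lower were 5 members (*Ywhae*, *Ywhah*, *Ywhaq*, *Ywhaz* and *Sfn*), where 59.1% of all genes tested did not overlap and 28.9% were separate and lower. All 7 fold changes were below 0, with a median of −0.34 on the log2 scale beside 0.02 for all genes.

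The change from d0 to d8 was not shown to differ between the genotypes for any member. By cell shape and myosin heavy chain protein, the study reports that AMPK-KO cells wholly failed to form myotubes. At the RNA level muscle markers rose in both genotypes, as given above. In AMPK-KO cells d8 therefore stands for time in differentiation medium and not for the same process as in WT cells. The difference of the log2 fold changes (AMPK-KO minus WT) was 0.16 for *Ywhah* (95% CI −0.52 to 0.84), 0.38 for *Ywhaq* (−0.27 to 1.03) and 0.58 for *Ywhaz* (−0.27 to 1.43), and all edgeR adjusted p-values were 1.00. These intervals are wide enough to hold differences of more than 2-fold for *Ywhaz* and *Ywhaq*. No member had an unadjusted p under 0.05 in this contrast and DESeq2 called none, and over all 14329 genes edgeR called 0, with 729 at an unadjusted p under 0.05, while DESeq2 called 57.

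**Figure D3:**
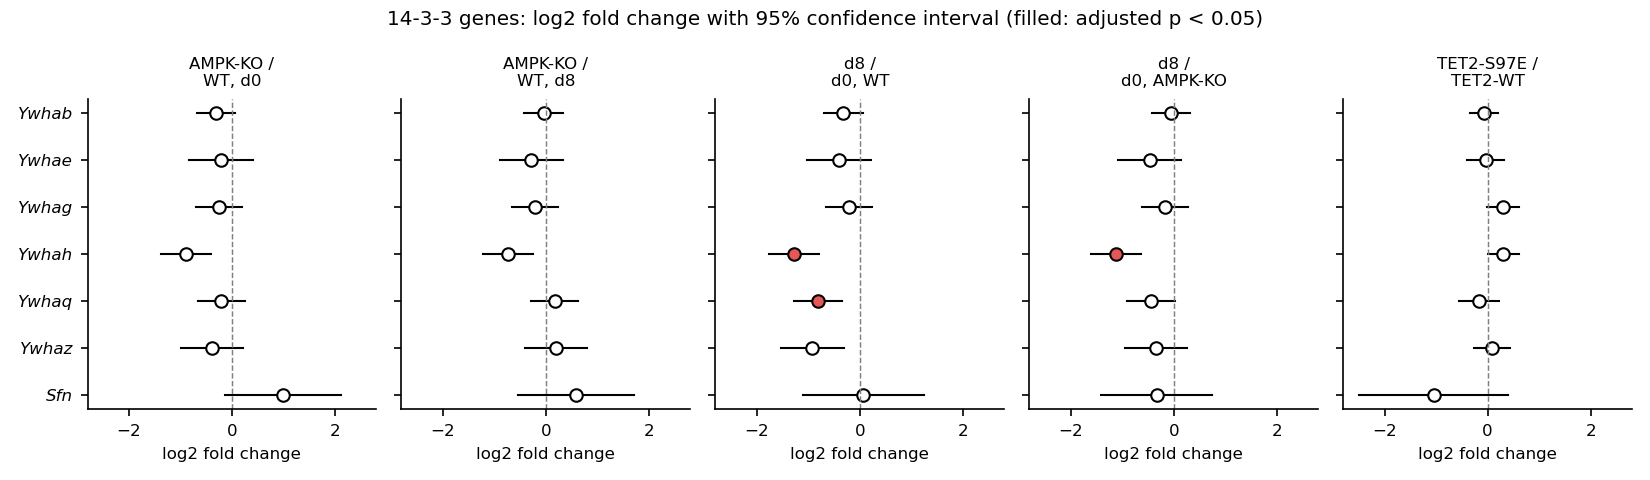
Log2 fold change of each 14-3-3 gene in 5 comparisons (AMPK-KO against WT at d0 and d8, d8 against d0 in WT and AMPK-KO, and TET2-S97E against TET2-WT), with 95% confidence intervals and filled points where the edgeR adjusted p was under 0.05. The filled points are *Ywhah* and *Ywhaq* in WT (−1.27 and −0.81) and *Ywhah* in AMPK-KO cells (−1.12), and *Sfn* has the widest intervals.

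*Ywhah* is the member that the differentiation results turn on, and its promoter is printed beside that of *Ywhag*, its closest relative by coding sequence, which was not called. The windows are the 250 bases before the RefSeq start on GRCm38.p6, for *Ywhah* chr5:33018566-33018815 on the plus strand and for *Ywhag* chr5:135934642-135934891 on the minus strand, each written 5′ to 3′ along its gene. Capitals mark matches to TGACGTCA (the cAMP response element), to the shorter TGACG and to GGGCGG (the GC box), on either strand. These motifs, the E-box letters CANNTG and the CCAAT box were chosen after the promoters had been seen.
Ywhah promoter: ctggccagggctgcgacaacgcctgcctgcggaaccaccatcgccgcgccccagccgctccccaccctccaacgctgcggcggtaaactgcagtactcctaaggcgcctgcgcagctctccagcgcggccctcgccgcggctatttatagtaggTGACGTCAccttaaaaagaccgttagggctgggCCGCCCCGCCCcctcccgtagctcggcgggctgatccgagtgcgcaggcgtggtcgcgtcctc
Ywhag promoter: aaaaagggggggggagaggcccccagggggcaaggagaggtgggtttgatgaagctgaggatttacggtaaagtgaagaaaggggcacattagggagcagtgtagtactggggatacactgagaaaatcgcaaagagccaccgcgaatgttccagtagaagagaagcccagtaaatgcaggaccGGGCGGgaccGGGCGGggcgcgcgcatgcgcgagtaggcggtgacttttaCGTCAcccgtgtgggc

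The *Ywhah* window held 1 match to TGACGTCA, which begins 96 bases before the start and is overlapped by 2 matches to TGACG, and 2 overlapping GGGCGG matches. The *Ywhag* window held 1 TGACG match without the full TGACGTCA and 2 GGGCGG matches. Of all 32851 RefSeq promoter windows of this length, 1.55% held TGACGTCA, 17.77% TGACG and 32.74% GGGCGG on either strand. Neither window held CANNTG, the letters that myogenic factors bind, which 66.22% of all windows held, and neither held CCAAT, which 33.85% held. The narrower form CAGCTG, also searched and a special case of CANNTG, was in 13.0% of all windows. The GC content was 68.8% for *Ywhah* and 58.4% for *Ywhag*, beside a median of 52.4% over all windows. Windows were found for 5 of the 7 members, and none for *Ywhab* and *Ywhaz*. *Ywhaq*, the other member called with differentiation in WT cells, had a window without the cAMP response element or its shorter form. That window also held no GC box and no E-box letters, and it held 2 matches to the CCAAT box. Whether any of these motifs goes with the calls was not tested. A match describes these letters and is not a bound site.

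AMPK-KO cells were compared with WT cells at each day. The study picked AMPK-KO clones after selection with puromycin, so that differences between clones cannot be told apart from the loss of AMPK. No member was called by edgeR at d0, where 3.52% of all genes tested were called and 2.83% were called lower, and none at d8, where 5.35% were called and 3.98% were called lower. At both days 1 member, *Ywhah*, had an unadjusted p under 0.05, beside 20.9% and 22.8% of all genes, and DESeq2 called it at both days, beside 9.05% and 10.5% of all genes with an adjusted p. *Ywhah* stood at 324 and 467 CPM in WT d0 against 212 and 212 CPM in AMPK-KO d0, and at 165 and 162 CPM in WT d8 against 106 and 89.5 CPM in AMPK-KO d8. At each day both AMPK-KO libraries lay below both WT libraries. The ratio was 0.537-fold at d0 (95% CI 0.384 to 0.751, log2 fold change −0.90, standard error 0.21, edgeR adjusted p = 0.0657) and 0.598-fold at d8 (95% CI 0.428 to 0.836, log2 fold change −0.74, standard error 0.21, edgeR adjusted p = 0.0890). Under DESeq2 the adjusted p-values were 0.0058 and 0.0281. In edgeR without a filter on low counts they were 0.0038 and 0.0189. Those unfiltered fits called 2026 genes at d0 and 2503 at d8, where the main fit called 505 and 766. With the replicate number as a block *Ywhah* was not called at either day. With 1 library left out, its log2 fold change ran from −1.15 to −0.61 at d0 and from −0.85 to −0.66 at d8.

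The other members gave no such step. *Ywhab*, whose product the study tested for binding to TET2, stood at 358 and 397 CPM in WT d0 and 291 and 319 CPM in AMPK-KO d0, lower in both AMPK-KO libraries (log2 fold change −0.31, standard error 0.16, edgeR adjusted p = 0.330). At d8 it stood at 284 and 321 CPM in WT and 285 and 303 CPM in AMPK-KO cells, with overlap (log2 fold change −0.04, 95% CI −0.41 to 0.33, edgeR adjusted p = 0.908). *Ywhaz* at d0 had a log2 fold change of −0.38 and *Ywhae* of −0.21 (edgeR adjusted p = 0.453 and 0.702), both with overlapping libraries. At d8 *Ywhaq* stood at 196 and 217 CPM in WT and at 242 and 223 CPM in AMPK-KO cells, and *Ywhaz* at 739.8 and 701 CPM and 789 and 864 CPM. Both were higher in AMPK-KO d8 without overlap, with log2 fold changes of 0.17 and 0.20 that were within the spread of the fit (edgeR adjusted p = 0.644 and 0.689). Members without overlap numbered 3 at d0 (*Ywhab* and *Ywhah* lower, *Sfn* higher), where 49.4% of all genes did not overlap, 25.7% being lower and 23.7% higher. They numbered 5 at d8 (*Ywhag* and *Ywhah* lower, *Ywhaq*, *Ywhaz* and *Sfn* higher), where 57.9% did not overlap, 27.9% being lower and 30% higher. The median over the members was −0.25 on the log2 scale at d0 and −0.04 at d8, and that of all genes −0.0010 and 0.04.

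Transcripts of 2 neuronal markers moved with the genotype in the same libraries. *Tubb3*, which encodes neuronal β-tubulin III, stood at 129 and 230 CPM in WT d0, 11.5 and 8.70 CPM in AMPK-KO d0, 96.2 and 63.4 CPM in WT d8 and 1.02 and 1.51 CPM in AMPK-KO d8. *Stmn2*, a microtubule regulator of neurons, stood at 115 and 150.3 CPM, 0.733 and 2.34 CPM, 21.8 and 16.6 CPM and 0.367 and 2.48 CPM in these groups. Both were lower in AMPK-KO cells at both days, with log2 fold changes of −4.15 and −6.41 at d0 and −5.99 and −3.78 at d8 (edgeR adjusted p = 0.0070, 0.0129, 0.0033 and 0.0388). The 5 neuronal markers summed to 244 and 380.4 CPM in WT d0, 12.3 and 11.03 CPM in AMPK-KO d0, 118 and 79.95 CPM in WT d8 and 1.47 and 3.98 CPM in AMPK-KO d8, with *Tubb3* the most abundant except in AMPK-KO d8 replicate 2. The defining neuronal genes *Snap25* and *Rbfox3* were at 0 counts in all 8 libraries and *Syt1* at no more than 2. *Ywhah* is abundant in brain, and the part of these transcripts in its differences between WT and AMPK-KO cells was not tested. In TET2-S97E cells *Stmn2* stood at 0.303 and 0.195 CPM in clone 1 and at 38.7 and 35.1 CPM in clone 2 (log2 fold change 7.24, edgeR adjusted p = 9.28e-05), and *Tubb3* was called higher in clone 2 as well (2.78, edgeR adjusted p = 0.0359). *Ywhah* overlapped between these clones, at 120.2 and 159.9 CPM in clone 1 and 157 and 127 CPM in clone 2. Of the 11 muscle markers, *Myog*, *Myod1* and *Mymk* were called lower in AMPK-KO d0 and none was called at d8, beside 3.52% and 5.35% of all genes. The part of these markers was not tested.

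**Figure D4:**
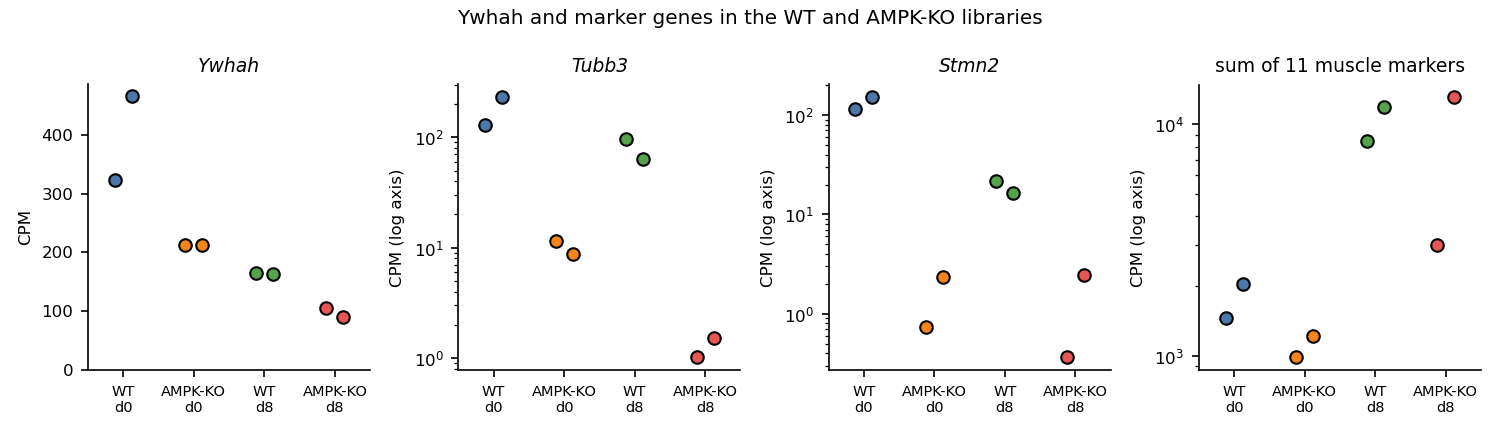
*Ywhah*, *Tubb3*, *Stmn2* and the sum of the 11 muscle markers in the 8 WT and AMPK-KO libraries, in CPM, with a linear axis for *Ywhah* and log axes for the rest, and 1 point per library. *Ywhah*, *Tubb3* and *Stmn2* are lower in both AMPK-KO libraries than in both WT libraries at each day, and the muscle sum is lower in both AMPK-KO libraries at d0 (986 and 1217 CPM against 1456 and 2049 CPM) and higher in every d8 library than in any d0 library.

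In the TET2 experiment the comparison asks what the imitated phosphorylation does in cells without AMPK. No member was called by edgeR between TET2-S97E and TET2-WT, where 6.98% of all genes tested were called. *Ywhah* alone had an unadjusted p under 0.05 (0.0473), beside 23.5% of all genes. With the replicate number as a block 2 members did, beside 3266 of 13433 genes. Libraries of 1 clone share their source, which the fit on genotype alone does not take into account. Neither DESeq2, limma-voom with the clone entered as a random effect nor edgeR on counts summed per clone called a member, and of all genes limma-voom called 1.24% and edgeR on clone sums 0, with 1575 of 15126 at an unadjusted p under 0.05. *Ywhah* stood at 115, 124, 101 and 116 CPM in TET2-WT (clone 1 replicates 1 and 2, then clone 2) and at 120.2, 159.9, 157 and 127 CPM in TET2-S97E. The genotypes overlapped, since TET2-S97E clone 1 replicate 1 lay below the highest TET2-WT library, and the log2 fold change was 0.31 (standard error 0.13, edgeR adjusted p = 0.207). Among libraries of the same replicate number, those of TET2-S97E lay above those of TET2-WT, a pattern that was not counted over all genes. *Ywhag* stood at 307, 319, 297 and 317 CPM in TET2-WT and at 381, 467, 329.8 and 342 CPM in TET2-S97E. All 4 TET2-S97E libraries were above all 4 TET2-WT libraries, and the log2 fold change of 0.29 (standard error 0.14) was not called (edgeR adjusted p = 0.234). *Ywhag* was the only member without overlap, and of all genes tested 15.3% did not overlap and 7.3% were separate and higher.

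*Ywhab* stood at 255, 243, 269 and 216 CPM in TET2-WT and at 223, 223, 259 and 227 CPM in TET2-S97E. The genotypes overlapped, and the log2 fold change was −0.08 (95% CI −0.34 to 0.19, or 0.789 to 1.14-fold, edgeR adjusted p = 0.764). *Ywhaq* had a log2 fold change of −0.18, *Ywhaz* of 0.08 and *Ywhae* of −0.04, each with overlapping libraries (edgeR adjusted p = 0.597, 0.800 and 0.920). The members' median was −0.04 and that of all genes 0.01 on the log2 scale. In the same libraries the 11 muscle markers summed to 894, 1154, 944 and 1361 CPM in TET2-WT and to 8270, 3813, 2801 and 1081 CPM in TET2-S97E. Of the 10 tested, edgeR called 7 higher, beside 6.98% of all genes. With the replicate number as a block it called 2 of the 10, and 858 of all 13433 genes. With the clone as a random effect limma-voom called 1 of the 10, *Myog* (adjusted p = 0.0382), and edgeR on clone sums called 0, with 8 at an unadjusted p under 0.05. TET2-S97E clone 2 replicate 2 was within the TET2-WT range in that sum. By that sum, 3 of 4 TET2-S97E libraries, all d0 cultures, stood above every TET2-WT library. In clone 2 replicate 2 *Des* stood at 693 CPM, below its 842 to 1095 CPM in TET2-WT. *Myog* stood there at 42.1 CPM, where TET2-WT reached at most 13.9 CPM. *Myod1*, *Mymk*, *Myh3*, *Myh1*, *Acta1* and *Ckm* also lay above every TET2-WT library there, whereas *Des*, *Tnnt3*, *Myf5* and *Actn2* did not. The part of these transcripts in the 14-3-3 levels was not tested.

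**Figure D5:**
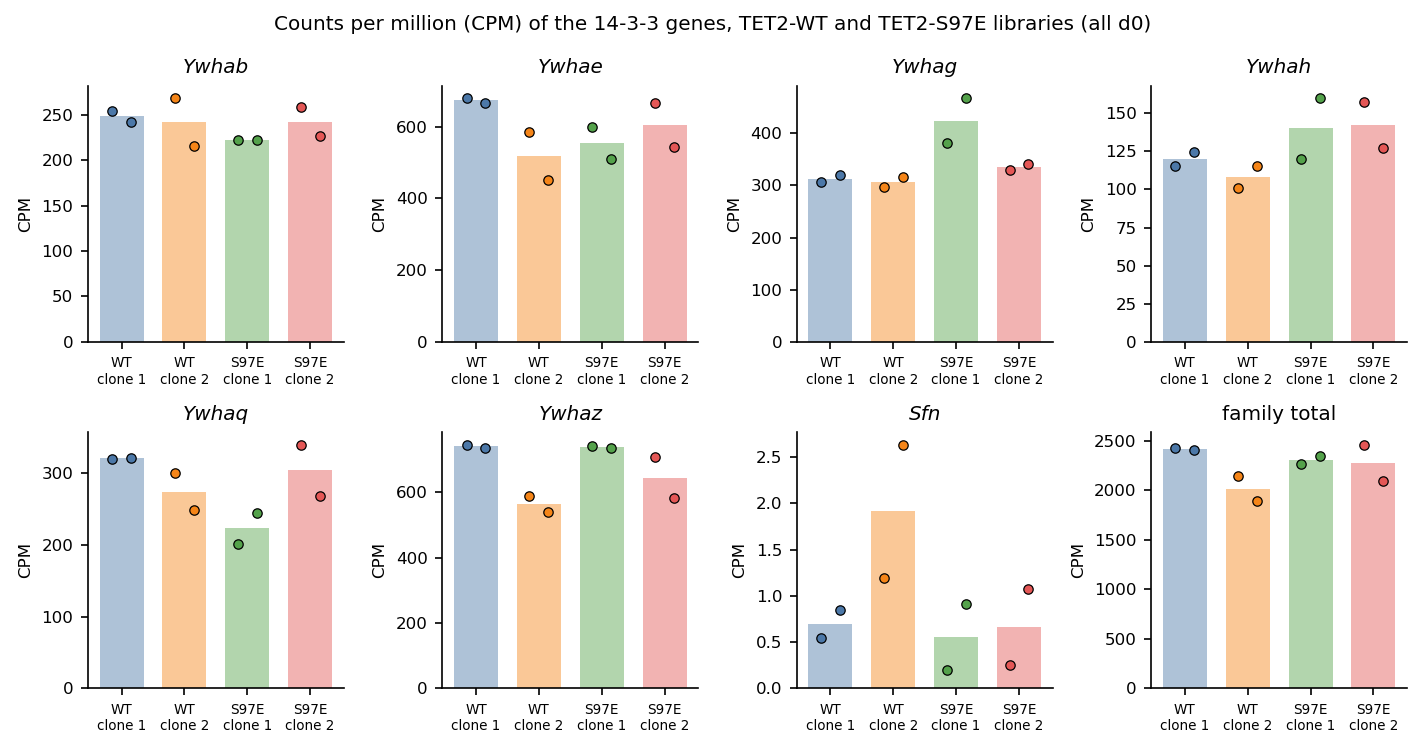
Level of each 14-3-3 gene and of the family total in the 2 clones of TET2-WT and of TET2-S97E cells, all at d0, in CPM on a linear axis from 0, with bars for the mean of 2 libraries and points for each library. *Ywhag* is the panel in which all TET2-S97E points (329.8 to 467 CPM) lie above all TET2-WT points (297 to 319 CPM), and for *Ywhaq* the clones of TET2-S97E lie apart.

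Clones of the same genotype also differed from each other. *Ywhaq* stood at 320.0 and 321 CPM in TET2-WT clone 1 and at 299.5 and 248.8 CPM in TET2-WT clone 2. In TET2-S97E it was the other way round, with 202 and 244 CPM in clone 1 and 339.6 and 268 CPM in clone 2. The log2 fold change of clone 2 against clone 1 was −0.23 in TET2-WT and 0.45 in TET2-S97E (edgeR adjusted p = 0.492 and 0.224). *Ywhaz* was lower in clone 2 of TET2-WT, with 746 and 735 CPM against 589 and 539.9 CPM (log2 fold change −0.40, edgeR adjusted p = 0.220). *Ywhag* was lower in clone 2 of TET2-S97E, with 381 and 467 CPM against 329.8 and 342 CPM (log2 fold change −0.33, edgeR adjusted p = 0.300). No member was called between clones by edgeR or DESeq2, where edgeR called 0.858% of all genes in TET2-WT and 6.17% in TET2-S97E. At an unadjusted p under 0.05 there was 1 member in each, *Ywhaz* and *Ywhaq*, beside 20.5% and 19.5% of all genes. Members without overlap between clones numbered 4 in each genotype, beside 54% and 48.2% of all genes. Cell type markers differed between the clones too, and their part in these differences was not tested. In TET2-WT *Myod1* was called higher in clone 2 (log2 fold change 1.32, edgeR adjusted p = 0.0388), and *Myog* and *Acta1* had log2 fold changes of 3.89 and 4.21 that were not called (edgeR adjusted p = 0.0622 and 0.123). In TET2-S97E the muscle markers called lower in clone 2 were *Myod1*, *Des* and *Myh3* (log2 fold changes −2.36, −1.59 and −2.59, edgeR adjusted p = 0.0012, 0.0140 and 0.0293), whereas *Myh1* stood at 2.62 and 0.553 CPM in clone 1 and at 69.6 and 2.35 CPM in clone 2 (4.57, edgeR adjusted p = 0.0763). Higher in clone 2 were *Stmn2* and *Tubb3*, as given above. The adipocyte marker *Fabp4* was called higher in clone 2 (edgeR adjusted p = 0.0433), with 0 and 2 counts in clone 1 and 30 and 29 in clone 2.

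*Sfn* was at the edge of detection throughout. It had 10 and 8 counts in WT d0, 20 and 17 in AMPK-KO d0, 9 and 10 in WT d8 and 19 and 14 in AMPK-KO d8. In CPM this was 0.482 and 0.434, 1.05 and 0.795, 0.496 and 0.469, and 0.775 and 0.680. Both AMPK-KO libraries were above both WT libraries at each day, with log2 fold changes of 0.99 (standard error 0.48) at d0 and 0.59 (standard error 0.48) at d8 that were not called (edgeR adjusted p = 0.295 and 0.511). In the TET2 experiment it had 12, 32, 26 and 74 counts in TET2-WT and 4, 28, 5 and 33 in TET2-S97E, with overlap (log2 fold change −1.05, standard error 0.65, edgeR adjusted p = 0.372). In each of the 4 clones the library numbered 2 held the higher *Sfn* level in CPM, and those libraries were also the deeper ones. *Ywhae* and *Ywhaz* were lower and *Ywhag* higher in the library numbered 2 of every clone. Of the epithelial markers, *Krt8* was, like *Sfn*, higher in both AMPK-KO libraries than in both WT libraries at each day. It stood at 0.0965 and 0.596 CPM in WT d0, 0.942 and 12.7 CPM in AMPK-KO d0, 0.331 and 0.188 CPM in WT d8 and 2.86 and 5.59 CPM in AMPK-KO d8. Its log2 fold changes of 4.31 and 4.01 between AMPK-KO and WT cells were not called (edgeR adjusted p = 0.128 and 0.134), and its part in the *Sfn* levels was not tested. Other epithelial markers went the other way. *Cdh1* stood at 1.45 and 0.434 CPM in WT d0 and 0.314 and 0.187 CPM in AMPK-KO d0, and at 1.27 and 1.60 CPM in WT d8 and 0.530 and 0.0486 CPM in AMPK-KO d8 (log2 fold changes −1.90 and −2.24, edgeR adjusted p = 0.332 and 0.218). *Krt14* overlapped at d0 and was lower in AMPK-KO d8, at 5.34 and 3.10 CPM against 0.245 and 0.0486 CPM (log2 fold change −4.74, edgeR adjusted p = 0.0749), and *Krt5* was at 0 counts in all 8 libraries.

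As *Sfn* is a p53 target, 14 other p53 targets were read beside it. None of the 14 was called between AMPK-KO and WT cells at either day, where 3.52% of all genes were called at d0 and 5.35% at d8. From d0 to d8 in WT cells 2 rose and 1 fell, namely *Cdkn1a*, the p21 cell cycle inhibitor, and *Gadd45a*, a growth arrest gene (log2 fold changes 1.88 and 2.61), and *Bax*, a promoter of apoptosis (−0.72; edgeR adjusted p = 0.0149, 0.0255 and 0.0336). These were 3 of 14, where 12.4% of all genes were called, and with the replicate block 6 were called, where 16.5% of all genes were. In AMPK-KO cells 4 rose and 2 fell, beside 9.76% of all genes called, with *Cdkn1a* at 1.89, *Gadd45a* at 3.32 and *Bax* at −0.89. In TET2-S97E cells edgeR called 3 of 13 tested higher, *Cdkn1a* at a log2 fold change of 1.70, *Eda2r* at 1.54 and *Trp53inp1* at 1.21 (adjusted p = 0.0117, 0.0154 and 0.0236), beside 6.98% of all genes. With the clone as a random effect limma-voom called *Cdkn1a* alone (adjusted p = 0.0425, against 0.0841 and 0.0758 for the other two), and clone sums called 0, with 3 targets at an unadjusted p under 0.05. *Sfn* itself had log2 fold changes of 0.07, −0.33 and −1.05 in these 3 comparisons, none called.

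The genes whose levels ran most like *Ywhab* were listed because its product is the isoform tested with TET2. Likeness was the smaller of the Pearson correlations of log2(CPM + 0.5) with *Ywhab* over the 8 libraries of each table, among 13078 genes. The 5 genes with the highest value were *Rap1b* (0.921), *Mtpn* (0.874), *Sept7* (0.871), *Cetn3* (0.866) and *Rap2b* (0.855), that is a pair of RAS-related GTPases, a myotrophin, a septin and a centrin. Of the members, *Ywhaq* came at rank 36 (0.744) and *Ywhae* at rank 52 (0.718). The correlation of *Ywhab* with *Ywhah* was 0.82 in the first table and −0.21 in the TET2 table, and with *Ywhag* it was 0.70 and −0.57. Within a table the 8 libraries fall into groups and share depth and normalization, so that these values describe the tables only.

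The partners of the family were read from lists. Of 36 known clients 35 were tested. *Hdac9*, a class IIa histone deacetylase that represses MEF2 targets, was the only one called between AMPK-KO and WT cells, beside 3.52% of all genes at d0 and 5.35% at d8. It stood at 35.3 and 49.2 CPM in WT d0 and at 2.30 and 5.38 CPM in AMPK-KO d0, and at 45.7 and 58.9 CPM in WT d8 and at 8.36 and 10.1 CPM in AMPK-KO d8. The AMPK-KO libraries were far lower at both days (log2 fold changes −3.45 and −2.50, edgeR adjusted p = 0.0109 and 0.0187), and with the replicate block 2 clients were called at each day, beside 5.16% and 7.98% of all genes. From d0 to d8 in WT cells 3 clients rose and 4 fell, and 11 were called with the block, which called 16.5% of all genes where the fit without it called 12.4%. Among them were the cell cycle phosphatases *Cdc25b* and *Cdc25c* (log2 fold changes −1.95 and −3.17) and the kinase *Araf* (0.79; edgeR adjusted p = 0.0152, 0.0320 and 0.0307). In AMPK-KO cells 4 rose and 3 fell, beside 9.76% of all genes called, including *Cdc25b* (−1.70) and the forkhead factors *Foxo4* (0.89) and *Foxo3* (0.84; edgeR adjusted p = 0.0250, 0.0263 and 0.0274). The median log2 fold change of the 35 clients was 0.13 in WT and 0.22 in AMPK-KO cells, beside 0.01 and 0.02 for all genes.

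Between TET2-S97E and TET2-WT edgeR called 2 clients higher and none lower, beside 6.98% of all genes, and neither call held once the clone was taken into account. *Cdc25b* stood at 30.1, 32.1, 23.1 and 31.5 CPM in TET2-WT and at 42.9, 46.3, 41.0 and 57.9 CPM in TET2-S97E, without overlap (log2 fold change 0.69, edgeR adjusted p = 0.0313). Its adjusted p was 0.137 in limma-voom with a random clone effect and 0.347 in edgeR on clone sums. *Tbc1d1*, a regulator of glucose transporter traffic and a substrate of AMPK, had a log2 fold change of 0.90 (edgeR adjusted p = 0.0412), with 65.2, 56.3, 54.5 and 85.4 CPM in TET2-WT and 172, 118, 111 and 87.6 CPM in TET2-S97E. Its adjusted p was 0.143 in limma-voom, 0.373 in edgeR on clone sums and 0.0625 with the replicate block. Between the clones of TET2-S97E 1 client, *Foxo1*, was called higher in clone 2, where 6.17% of all genes were called. None was called between those of TET2-WT, where 0.858% of all genes were.

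Of a list of 34 genes of kinases that write 14-3-3 sites 31 were tested. The list holds regulatory β and γ subunits of AMPK (*Prkab1*, *Prkab2*, *Prkag1*, *Prkag2* and *Prkag3*), which are not kinases themselves, and the counts include them. Apart from *Prkaa1* and *Prkaa2*, the gene called between AMPK-KO and WT cells was *Lats1* of the Hippo pathway, higher at d8 (log2 fold change 0.69, edgeR adjusted p = 0.0322), and the block raised the count from 1 to 2 at d0 and from 3 to 6 at d8. Over all genes the block raised the share called from 3.52% to 5.16% at d0 and from 5.35% to 7.98% at d8. From d0 to d8 4 genes of the list, *Prkag3* among them, rose and 2 fell in each genotype, beside 12.4% of all genes called in WT and 9.76% in AMPK-KO cells. The DNA damage checkpoint kinases *Chek1* and *Chek2* fell by 2.66 and 2.07 on the log2 scale in WT cells (edgeR adjusted p = 0.0143 for both) and *Chek1* fell by 2.01 in AMPK-KO cells (edgeR adjusted p = 0.0222). The AMPK-related kinase *Nuak1* rose by 2.27 in WT cells, and the salt-inducible kinase *Sik1* by 2.07 and *Akt2* by 0.96 in AMPK-KO cells (edgeR adjusted p = 0.0169, 0.0227 and 0.0232). In TET2-S97E cells edgeR called 2 higher and 2 lower, beside 6.98% of all genes, and it called 3 genes of the list with the replicate block. *Prkacb*, a catalytic subunit of protein kinase A, stood at 164, 139, 164 and 145 CPM in TET2-WT and at 81.1, 72.9, 82.9 and 86.4 CPM in TET2-S97E, and the groups were far apart (log2 fold change −0.92, edgeR adjusted p = 0.0057). *Pim1* had a log2 fold change of −0.88 and *Prkag3*, the AMPK γ3 subunit of skeletal muscle, of 3.40 (edgeR adjusted p = 0.0075 and 0.0188). With the clone as a random effect limma-voom called *Prkacb* and *Pim1* (adjusted p = 0.0252 and 0.0339) and not *Prkag3* (adjusted p = 0.209), and edgeR on clone sums called 0 genes of the list, with 5 at an unadjusted p under 0.05.

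All 11 phosphatase genes were tested. From d0 to d8 in WT cells 3 fell and none rose, *Ppp2r1b* by 0.87, *Ppp1cc* by 0.66 and *Ppp1ca* by 0.74 on the log2 scale (edgeR adjusted p = 0.0179, 0.0410 and 0.0467), which are subunits of protein phosphatases 2A and 1. Of all genes 6.58% were called lower in that comparison. In AMPK-KO cells edgeR called none, where 9.76% of all genes were called, and 4 had an unadjusted p under 0.05, beside 28.4% of all genes. With the replicate block 2 were called, beside 12.9% of all genes. *Ppp3ca*, a catalytic subunit of calcineurin, stood at 388, 373, 390.1 and 257 CPM in TET2-WT and at 127, 92.0, 175 and 137 CPM in TET2-S97E. The genotypes did not overlap, and the log2 fold change was −1.41 (edgeR adjusted p = 0.0084). It was called with the clone as a random effect in limma-voom (adjusted p = 0.0364) and not by edgeR on clone sums (adjusted p = 0.277). None of the phosphatases was called between AMPK-KO and WT cells at either day, where 3.52% of all genes were called at d0 and 5.35% at d8. At an unadjusted p under 0.05 there were 2 at d0 and 1 at d8, beside 20.9% and 22.8% of all genes.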

How the data were processed

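RNA was isolated from C2C12 cells, and rRNA-depleted libraries were sequenced as paired ends. The authors trimmed reads with Trim Galore 0.4.5, aligned them to GRCm38 (mm10) with STAR 2.5.3a and counted them per GENCODE M12 gene with featureCounts 1.5.3, and they deposited whole-number counts that were not normalized, in 2 tables. Read trimming, and counting whose handling of strand and of reads with several alignments is not given in the sources used here, can move reads between near-identical rows. The tools come from the study's methods and the submitters' processing notes, which also name bcl2fastq 2.17.

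Genes were named from GENCODE M21, which matched 49326 of 49585 identifiers. Each table was filtered with filterByExpr, normalized with TMM and fitted with the quasi-likelihood test of edgeR 4.0.16 in R 4.3.3, with p-values adjusted by Benjamini-Hochberg over all genes tested and a threshold of 0.05. The first table was fitted with a mean for each of its 4 groups, on 14329 genes with 4 residual degrees of freedom. The TET2 table was fitted with genotype alone, on 13433 genes with 6, and clones were compared with a mean for each clone, on 14459 genes. The common biological coefficient of variation was 0.281 and 0.299. Separate totals of 17883417 to 37790358 counts limit the precision mainly for *Sfn*, and 2 libraries against 2 could not go below a two-sided p of 0.333 in an exact permutation test of 1 gene, so that calls come from the fit across genes. Replicates differed by more than sampling noise and were all kept.

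Same-numbered libraries of the first table deviated together, with correlations of 0.119 to 0.324 over 6 pairs of groups. The pairing therefore comes from the data, because the labels do not say what the number marks. Alternatives were other size factors, DESeq2 1.42.0, other filters on low counts, the replicate block, fewer libraries, clone sums and limma 3.58.1 voom with a random clone effect. The scripts were tested on simulated data. The named genes are the 7 members, their pseudogene rows, the edited genes, at most the 3 called genes with the lowest adjusted p of each list and comparison, and the 5 genes most like *Ywhab*. Outside this rule, rows that share sequence with a member and cell type markers that were not called are also named, and these were chosen after their values were seen. The members and lists were chosen with earlier results of these data known. Promoters come from RefSeq and coding sequences from GENCODE, both on GRCm38.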

Additional observations from a re-analysis of the deposited data

Results flagged for a closer look

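*Ywhab* in TET2-S97E held 1 library away from the rest. Clone 2 replicate 1 stood at 259 CPM and the nearest of the other 3 libraries at 227 CPM, so that the gap took 0.888 of the range of the group, past Dixon's 95% limit for 4 samples. *Ywhae* made up 23.9% of the family in TET2-WT clone 2 replicate 2 and 27.4% in the nearest TET2-WT library, a gap of 0.830 of the range, just past that limit. These were 2 of 30 groups of values checked in this way, and chance marks about 1 in 20.

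*Ywhaq* differed between clones in opposite directions in the genotypes. Its CPM in clone 2 was 0.855 times that in clone 1 in TET2-WT and 1.36 times in TET2-S97E, and the clones did not overlap in either genotype. The difference between these ratios was not tested.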

How the results depend on the processing

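Of 369 fold changes of members under the alternatives other than leaving out a library or clone, 361 kept their direction and their side of the threshold, 0 reversed, 1 fell short and 7 newly passed. Of 308 with a library or clone left out, 268 kept both, 29 reversed, 9 fell short and 2 newly passed. Between AMPK-KO and WT cells no member was called at either day, and 1 member, *Ywhah*, was called at each day without a filter on low counts and 1, again *Ywhah*, at each day with DESeq2. In WT cells between d0 and d8, 1 member, *Ywhah*, was called from the libraries of that genotype alone, and *Ywhaq* fell short. Leaving out 1 library gave 0 to 1 members between AMPK-KO and WT cells at d0, 0 to 3 from d0 to d8 in WT cells and 0 to 1 in AMPK-KO cells. The cause was not tested.

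Log2 fold changes that turned with a library or clone left out ran as follows. Between AMPK-KO and WT cells at d0, *Ywhae* ran from −0.48 to 0.11, *Ywhaq* from −0.43 to 0.058 and *Ywhaz* from −0.71 to 0.029, and at d8 *Ywhab* ran from −0.12 to 0.063. From d0 to d8 in AMPK-KO cells, *Ywhab* ran from −0.14 to 0.026. For the difference between the genotypes in that change, *Ywhae* ran from −0.42 to 0.22, *Ywhag* from −0.15 to 0.20 and *Ywhah* from −0.17 to 0.42. Between TET2-S97E and TET2-WT, *Ywhae* ran from −0.22 to 0.16, *Ywhaq* from −0.42 to 0.016 and *Ywhaz* from −0.11 to 0.29. Between the clones of TET2-WT, *Ywhab* ran from −0.22 to 0.11. Between those of TET2-S97E, *Ywhab* ran from −0.017 to 0.22, *Ywhae* from −0.074 to 0.27, *Ywhah* from −0.18 to 0.25 and *Sfn* from −1.18 to 1.75.

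Counts of all genes called moved more. Between AMPK-KO and WT cells at d0 edgeR called 505, against 2026 without a filter, 204 with at least 10 counts in every library, 1310 with DESeq2 and 335 from that day alone, and at d8 766, against 2503, 277 and 1569 under the first 3 of these. Between the days it called 1771 in WT cells, against 3293 without a filter, and 1398 in AMPK-KO cells, against 3039 without a filter, 2393 with DESeq2 and 788 from that genotype alone. For the difference in that change it called 0, against 449 without a filter and 57 with DESeq2. Between TET2-S97E and TET2-WT it called 938, against 1936 with DESeq2, 0 with clone sums and 166 with limma-voom. Between clones it called 124 in TET2-WT, against 1627 without a filter and 889 with DESeq2, and 892 in TET2-S97E, against 1680 and 1354.

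With the replicate number as a block, *Ywhaz* passed from d0 to d8 in WT cells (log2 fold change −0.88, edgeR adjusted p = 0.0495), which brought the members called there to 3, and no other member call changed. In the TET2 table same-numbered libraries had correlations of −0.036 to 0.512, with 3 of the 6 pairs of groups at 0.399, 0.426 and 0.512 and 1 below 0. The numbers were not taken to pair them, since not every pair of groups deviated together. With the block edgeR called 858 genes and 0 members between TET2-S97E and TET2-WT, and it gave 677 and 1540 genes between the clones. Per kilobase, 55 of 70 shares moved by more than 1 SD, and without TMM 2 of 10 family totals did. Depth limits *Sfn*, with 4 to 74 counts, and 2 libraries a group limit all calls.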
